A study of Rattus norvegicus with 12 samples.

Results

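*Fos*, *Egr1*, *Jun*, *Junb* and *Atf3* were followed in the degenerating retina of Royal College of Surgeons (RCS) rats. They were chosen by their Ensembl identifiers and the chromosome expected for each, and all 5 were found among the 32883 genes counted. RNA of whole retinas at postnatal day 21 (p21) or 60 (p60) was sequenced from 2 lines, and each of the 4 groups held 3 of the 12 libraries. The immunocompetent line has the genotype RCS-p+ (WT in the labels, all labelled male), and the athymic line has the genotype RCS-p+/Foxn1mu (all labelled female). *Foxn1* is needed for the thymus, where T cells mature. RCS rats of both lines lack functional MerTK, the receptor with which the retinal pigment epithelium takes up shed rod outer segments, so no library comes from a retina without degeneration. Line and labelled sex coincide, and the effects of these cannot be told apart.

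Immediate early genes are transcribed within minutes of a stimulus such as neuronal activity, a growth factor or injury, from transcription factors already present in the cell, and their mRNAs are short-lived. FOS, JUN and JUNB belong to the AP-1 family, in which a FOS protein pairs with a JUN protein, or JUN proteins pair with each other, to bind DNA. EGR1 is a zinc finger transcription factor that responds to many of the same stimuli. ATF3 is a stress-induced relative of the AP-1 proteins and is known in the retina as a marker of injured ganglion cells.

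Each library held between 13852516 and 16725355 counts. Sex labels were compared with counts on the 48 Y-chromosome genes, given as CPM, the counts divided by each library's total and scaled to a common depth. The libraries labelled male had 229.2 to 323 CPM on the Y chromosome, and 3 of the 6 libraries labelled female (4, 5 and 22) were at or above the lowest of these. Library 3, labelled male, had 392.8 CPM on 4 X-chromosome genes that otherwise ran opposite to the Y counts, against 155.6 or less in the rest of the libraries with that label. Other levels are given as CPM after scaling of the libraries by the trimmed mean of M-values (TMM). Because labelled sex goes with line, the line of libraries 3, 4, 5 and 22 could also be other than labelled, which was not tested and limits every value given by line. In a set of 33 genes picked for being high in library 4, which holds 0 of the 5 genes described here, libraries 4 and 19 had 20066 and 6731 TMM-scaled CPM, libraries 24, 6 and 3 had 2635, 2305 and 1091, and the other 7 libraries had 107.3 to 359.8. The fits of the 5 genes are also given without libraries 4, 19 and 24 and without libraries 3, 4, 5 and 22. The files list genes by identifier without symbols, so cell type markers and other genes of the pathway were not analysed here, and the tissue label was not checked against markers. In whole tissue, a change in the share of cells of a type and a change in RNA per cell cannot be told apart, for a rise as for a fall. Age and the degeneration that goes with it also cannot be told apart here. When each retina was taken is not given in the sources used here. Effects of collection therefore cannot be told apart from those of age either, and were not tested.

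*Fos* (ENSRNOG00000008015, chromosome 6, 109300433 to 109303299 on the forward strand of the Rnor_6.0 build, 4 exonic intervals) rose with the highest fitted fold of the 5 genes. At p21, *Fos* had 13.3, 17.9 and 14.8 CPM in immunocompetent libraries 1, 2 and 3. In athymic libraries 4, 5 and 6 it had 11.7, 14.3 and 10.8. At p60 it had 53.0, 39.8 and 47.3 CPM in immunocompetent libraries 19, 20 and 21, and 46.9, 58.1 and 58.7 in athymic libraries 22, 23 and 24. Every p60 library was therefore above every p21 library, and the mean went from 13.8 ± 2.52 to 50.6 ± 7.33 CPM (SD, n = 6 each). The fitted change was 3.67-fold, or 1.88 on the log2 scale with a standard error of 0.126 (adjusted p = 1.72e-08 by edgeR's quasi-likelihood test, p-values being adjusted over all genes after Benjamini and Hochberg). Of the 16069 genes tested, 153 had a larger log2 fold change.

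*Junb* (ENSRNOG00000042838, chromosome 19, 26092974 to 26094756, on the reverse strand, a single exonic interval) encodes a JUN protein that is a weaker activator than JUN at many sites. It had 20.6, 25.6 and 29.4 CPM in the immunocompetent libraries at p21 and 15.0, 19.6 and 18 in the athymic libraries. At p60 the values were 70.8, 51.0 and 67.6 in the immunocompetent line and 60.4, 83.4 and 68.2 in the athymic line. The ages again did not overlap, and *Junb* rose from 21.4 ± 5.26 to 66.9 ± 10.8 CPM (SD, n = 6 each). The fitted change was 3.17-fold, or 1.66 on the log2 scale (standard error 0.148, adjusted p = 3.09e-07 by edgeR's quasi-likelihood test), and 223 genes had a larger one.

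*Egr1* (ENSRNOG00000019422, chromosome 18, 27657628 to 27661429, on the forward strand, 2 exonic intervals) moved the opposite way. It had 52.9, 43.6 and 62.1 CPM in the immunocompetent libraries at p21, and 39.0, 84.5 and 44.1 in athymic libraries 4, 5 and 6. At p60 it had 28.2, 30.1 and 28 CPM in the immunocompetent libraries and 36.2, 41.9 and 33.0 in the athymic libraries. The ages overlapped through library 4 at p21 and library 23 at p60, and library 5 was the highest of all 12. Over all libraries, *Egr1* fell by 0.73 on the log2 scale, to 0.602 of its p21 level (standard error 0.164, adjusted p = 0.00144 by edgeR's quasi-likelihood test).

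The sequences before the start sites of *Egr1* and *Junb* are shown because these were the 2 of the 5 genes with an entry in the promoter table used here. *Fos*, *Jun* and *Atf3* could not be compared, and any link to the direction of change with age was not tested. The sequences are the 250 bases before the RefSeq start site on the GRCr8 build. They lie at chr18:26736828-26737077 and chr19:40080876-40081125, both on the forward strand of that build. Capitals mark CArG boxes, the sites of serum response factor, and TGACG, the core of the cAMP response element.
Egr1: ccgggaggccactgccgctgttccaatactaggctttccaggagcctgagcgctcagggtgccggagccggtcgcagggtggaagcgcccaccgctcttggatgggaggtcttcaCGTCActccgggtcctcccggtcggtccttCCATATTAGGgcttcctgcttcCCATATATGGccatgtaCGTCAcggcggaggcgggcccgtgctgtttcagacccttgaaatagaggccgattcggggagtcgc
Junb: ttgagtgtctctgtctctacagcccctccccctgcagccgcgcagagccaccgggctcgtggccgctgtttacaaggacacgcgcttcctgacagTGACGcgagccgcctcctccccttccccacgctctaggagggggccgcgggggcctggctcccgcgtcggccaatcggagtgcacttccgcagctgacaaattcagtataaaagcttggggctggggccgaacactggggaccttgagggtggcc
Both strands were searched. The *Egr1* sequence holds 2 CArG boxes, CCATATTAGG from 105 and CCATATATGG from 83 bases before the start, and 2 TGACG cores, from 135 and 66 bases before it. The *Junb* sequence holds 0 CArG boxes and 1 TGACG core, from 155 bases before its start. A CArG box was found in 1.5% and the TGACG core in 18.2% of the 33469 promoters of the same length. The full element TGACGTCA, which contains that core, the AP-1 site TGANTCA and the EGR site GCGGGGGCG were found in neither sequence, and in 1.59%, 6.34% and 2.45% of all promoters. These matches describe the letters only, and neither binding nor the activity of the promoters was measured.

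*Jun* (ENSRNOG00000026293, chromosome 5, 114011189 to 114014277, on the reverse strand, a single exonic interval) had 1055 to 1488 counts per library, the most of the 5 genes in each library except athymic library 23, where *Junb* had more. At p21 it had 95.5, 100.8 and 104.3 CPM in the immunocompetent libraries and 76.9, 98.1 and 87.2 in the athymic libraries. At p60 the values were 75.0, 67.0 and 79.8 in the immunocompetent line and 74.7, 74.8 and 78.0 in the athymic line. Only athymic library 4 at p21 lay within the p60 range. *Jun* fell by 0.32 on the log2 scale, to 0.80 of its p21 level (standard error 0.0663, adjusted p = 7.67e-04 by edgeR's quasi-likelihood test). This fall depended on the scaling of the libraries. With scaling to total counts alone, which moved the median change over all genes (log2) from 0.015 to 0.20, it was -0.13 (adjusted p = 0.104).

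*Atf3* (ENSRNOG00000003745, chromosome 13, 109817728 to 109849632, on the reverse strand, 6 exonic intervals) was the least abundant of the 5 genes, with 49 to 125 counts per library. It had 6.51, 6.10 and 5.29 CPM in the immunocompetent libraries at p21, and 5.07, 3.66 and 4.66 in the athymic libraries. At p60 it had 5.41, 7.05 and 7.65 in the immunocompetent libraries and 7.39, 6.45 and 5.48 in the athymic libraries. The ages overlapped, and the fitted change was 1.27-fold, or 0.35 on the log2 scale (standard error 0.137, adjusted p = 0.0412 by edgeR's quasi-likelihood test). The adjusted p was over 0.05 when any one of libraries 3, 5, 6, 20, 21, 22 or 23 was left out (0.0614 to 0.101), and the log2 fold change was 0.18 (adjusted p = 0.363) without libraries 3, 4, 5 and 22.

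**Figure D1:**
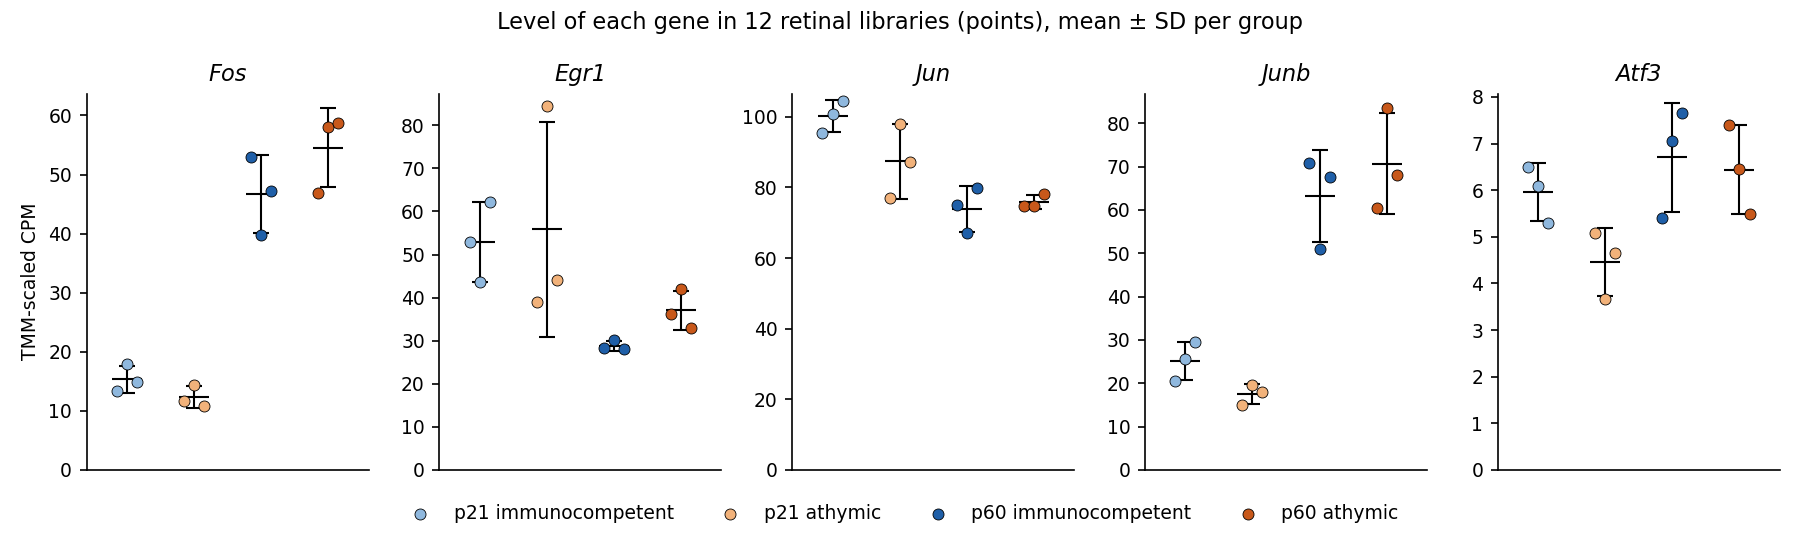
TMM-scaled CPM (vertical axis, each panel from 0) of *Fos*, *Egr1*, *Jun*, *Junb* and *Atf3* in the 12 libraries, with 1 point per library and black marks for the mean ± SD of the 3 libraries of a group. The p60 points of *Fos* and *Junb* lie above all p21 points, those of *Egr1* and *Jun* are mostly below, and athymic library 5 is the high p21 point of *Egr1* at 84.5 CPM.

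Between p21 and p60, 5 of the 5 genes were past an adjusted p of 0.05 (edgeR's quasi-likelihood test), 3 higher and 2 lower, where 62.0% of all genes tested were, 31.7% higher and 30.3% lower. A call alone therefore sets a gene little apart in this comparison. The median log2 fold change was 0.35 for the 5 genes, which is the value of *Atf3* alone, and 0.015 for all genes. The ages did not overlap for 2 of the 5 genes, *Fos* and *Junb*, against 40.4% of all genes. By a two-sided exact permutation test of the log2 CPM over 6 libraries per age, p was 0.00216 for *Fos* and for *Junb*, the smallest this design allows, 0.00433 for *Egr1*, 0.00649 for *Jun* and 0.0411 for *Atf3*. Without libraries 4, 19 and 24, the log2 fold changes were 1.75 for *Fos*, 1.55 for *Junb*, -0.79 for *Egr1*, -0.39 for *Jun* and 0.49 for *Atf3*, all past the threshold, and leaving out libraries 3 and 6 as well kept all 5 past it (adjusted p = 0.0427 for *Atf3*). Without libraries 3, 4, 5 and 22 they were 1.87 for *Fos*, 1.66 for *Junb*, -0.56 for *Egr1* and -0.33 for *Jun*, again past it.

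Levels of different genes were compared as TMM-scaled CPM per kb of exon. At p21, *Jun* had the highest level in each of the 6 libraries, at 30.4 ± 3.28 CPM per kb (SD, n = 6). *Egr1* followed at 17.4 ± 5.40 and *Junb* at 12 ± 2.95, which changed places in immunocompetent library 2, then *Fos* at 8.70 ± 1.58 and *Atf3* at 1.79 ± 0.350. At p60 the order was *Junb* at 37.5 ± 6.06, *Fos* at 31.9 ± 4.61, *Jun* at 24.2 ± 1.42, *Egr1* at 10.5 ± 1.73 and *Atf3* at 2.26 ± 0.330 CPM per kb, and it was the same in each of the 6 libraries. *Jun* was therefore above *Junb* and *Fos* in each library at p21 and below both in each library at p60, while *Atf3* was last at both ages.

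The ratio of 2 genes within a library does not depend on how libraries are scaled to each other. Per kb, *Fos* was at 0.286 ± 0.0345 of *Jun* at p21 (range 0.241 to 0.345) and at 1.31 ± 0.157 of *Jun* at p60 (range 1.15 to 1.51; SD, n = 6 each). *Junb* went from 0.391 ± 0.0601 to 1.54 ± 0.218 of *Jun*. Neither ratio overlapped between the ages, and p was 0.00216 for each by an exact permutation test (two-sided), the smallest possible. This follows from the levels of these genes given above and is not separate evidence. The ratio of *Fos* to *Junb*, both of which rose, was 0.741 ± 0.112 at p21 and 0.853 ± 0.0687 at p60, which did not pass the same exact permutation test (p = 0.0606). Of the summed level of the 3 AP-1 genes, *Jun* made up 59.8% ± 2.71 at p21 and 26.1% ± 2.32 at p60, *Junb* 23.2% ± 2.58 and 39.9% ± 2.13, and *Fos* 17.0% ± 1.60 and 34.0% ± 1.62. The sum itself was 51.0 ± 7.33 CPM per kb at p21 and 93.6 ± 11.2 at p60 (exact permutation test, p = 0.00216). These are RNA levels, and AP-1 proteins were not measured by the libraries.

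**Figure D2:**
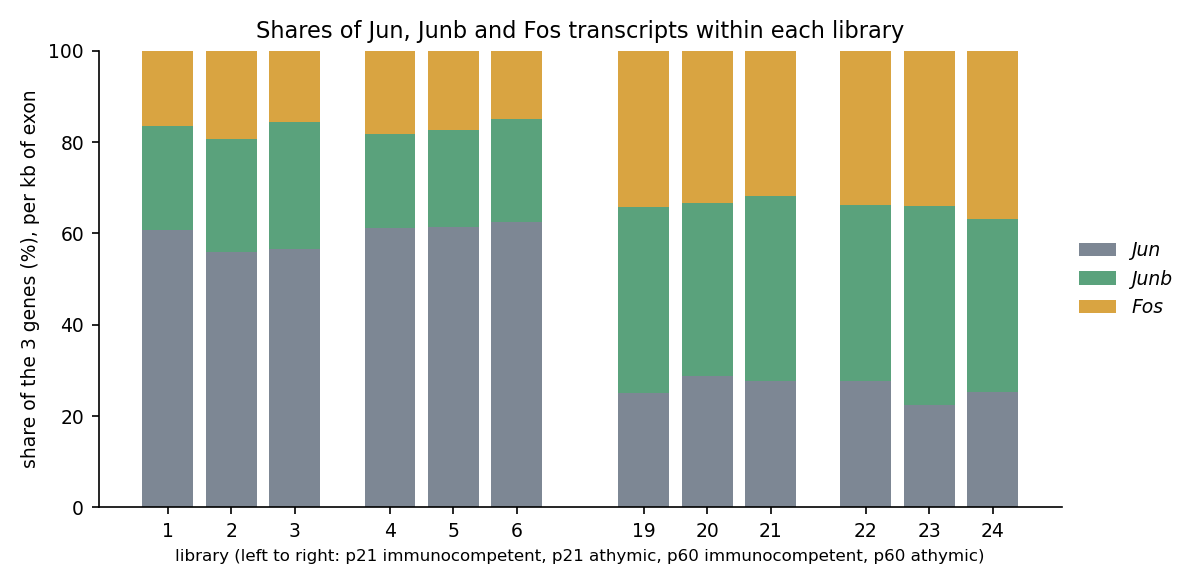
Share of *Jun*, *Junb* and *Fos* (vertical axis, percent of their summed TMM-scaled CPM per kb of exon) in each of the 12 libraries, which stand by group along the horizontal axis. *Jun* makes up 56.0% to 62.6% at p21 and 22.5% to 28.8% at p60.

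The change from p21 to p60 was then evaluated in each line alone, with 3 libraries per age and no library in common. In the athymic line, Y counts were at the level of libraries labelled male in libraries 4 and 5 at p21 and in library 22 at p60. Sex by Y counts was therefore not balanced between the ages in that line, and its part in the athymic values was not tested. In the immunocompetent line, 4 of the 5 genes passed the test, where 51.4% of all genes did, and in the athymic line 3 of the 5, where 49.9% did. *Fos* rose in both, with a log2 change of 1.60 (standard error 0.139, adjusted p = 1.75e-05 by edgeR's quasi-likelihood test) in the immunocompetent line and 2.15 (standard error 0.132, adjusted p = 4.44e-06) in the athymic line. *Junb* also rose in both, by 1.32 (standard error 0.154, adjusted p = 1.05e-04) and 2.00 (standard error 0.139, adjusted p = 9.07e-06). As folds, these were 3.03 and 4.43 for *Fos* and 2.5 and 4.01 for *Junb*. The 3 p60 libraries did not overlap the 3 p21 libraries for 4 genes in the immunocompetent line, all but *Atf3*, against 58.9% of all genes, and for *Fos*, *Junb* and *Atf3* in the athymic line, against 58.8%. With 3 libraries against 3, a two-sided exact permutation test cannot go below 0.1.

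*Egr1* and *Jun* passed the test in the immunocompetent line alone. There, *Egr1* fell by 0.88 on the log2 scale (standard error 0.123, adjusted p = 3.18e-04 by edgeR's quasi-likelihood test) and *Jun* fell by 0.44 (standard error 0.0753, adjusted p = 0.00103), or by 0.25 with scaling to total counts alone (adjusted p = 0.028). In the athymic line, the log2 fold change was -0.60 for *Egr1* (standard error 0.263, adjusted p = 0.0884) and -0.21 for *Jun* (standard error 0.0903, adjusted p = 0.0834), or -0.021 with scaling to total counts alone (adjusted p = 0.86). The athymic values turned on single p21 libraries. Without library 4, *Egr1* was at -0.81 (adjusted p = 0.0308) and *Jun* at -0.31 (adjusted p = 0.01000), both past the threshold, whereas without library 5, *Egr1* was at -0.17 (adjusted p = 0.271) and *Jun* at -0.12 (adjusted p = 0.261). *Atf3* had a log2 fold change of 0.17 in the immunocompetent line (standard error 0.186, adjusted p = 0.481) and 0.52 in the athymic line (standard error 0.191, adjusted p = 0.0491). The athymic value did not pass when any one of libraries 4, 5, 6, 22 or 23 was left out (adjusted p = 0.055 to 0.19), and scaling to total counts alone gave 0.71 (adjusted p = 0.0135). In a model of all 4 groups without libraries 3, 4, 5 and 22, which leaves 1 athymic library at p21 and assumes that it varies like the others, the athymic line had 2.42 for *Fos* (adjusted p = 1.63e-04) and 2.06 for *Junb* (adjusted p = 5.16e-04), both past the threshold. *Egr1* had -0.25 (adjusted p = 0.293), *Jun* -0.20 (adjusted p = 0.19) and *Atf3* 0.34 (adjusted p = 0.385), none of them past it. With all libraries, the model of all 4 groups had *Egr1* and *Atf3* past the threshold in the athymic line but not *Jun* (adjusted p = 0.0583 by edgeR's quasi-likelihood test). Without libraries 4, 19 and 24, all 5 genes passed in the athymic line in this model, with -0.71 for *Egr1* (adjusted p = 0.028), -0.31 for *Jun* (adjusted p = 0.019) and 0.73 for *Atf3* (adjusted p = 0.0151). In the immunocompetent line, the same 4 genes passed without either set of libraries.

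**Figure D3:**
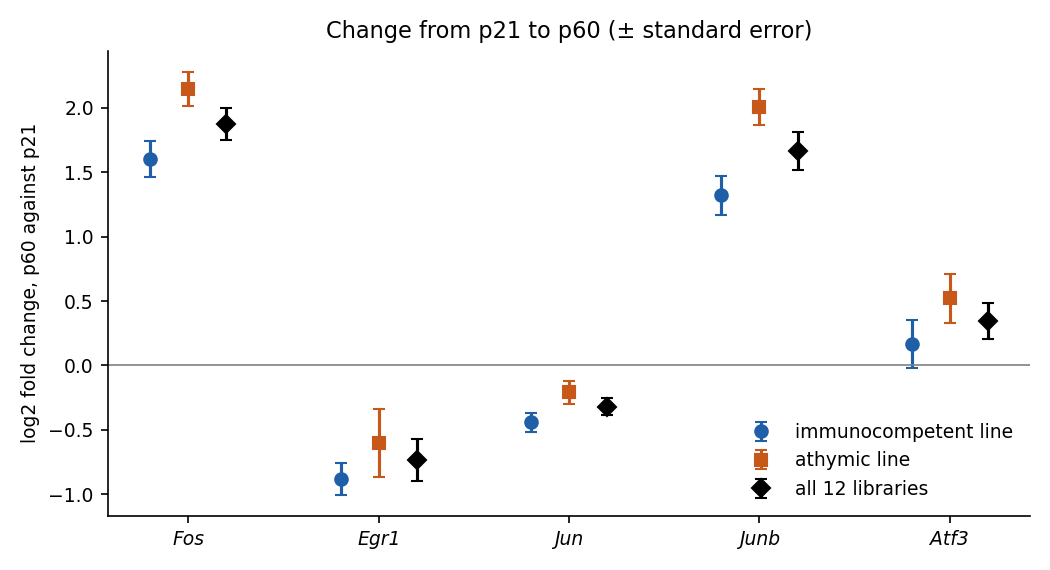
Log2 fold change from p21 to p60 (vertical axis, with standard errors) of the 5 genes in the immunocompetent line, in the athymic line and over all 12 libraries. *Fos* and *Junb* lie between 1.32 and 2.15, *Egr1* and *Jun* lie below 0, and the athymic value is the higher of the lines for each gene.

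Whether the change with age differed between the lines was tested by the interaction of age and line. The athymic minus the immunocompetent change was 0.55 for *Fos* (standard error 0.203), 0.69 for *Junb* (standard error 0.228), 0.28 for *Egr1* (standard error 0.325), 0.24 for *Jun* (standard error 0.119) and 0.36 for *Atf3* (standard error 0.264), in log2 units. All 5 values were above 0, but 0 of the 5 genes passed edgeR's quasi-likelihood test, where 0.00622% of all genes did (1 gene). Adjusted p was 0.404 for *Fos* and 0.338 for *Junb*, whose unadjusted p-values of 0.0177 and 0.00994 were the 2 under 0.05, and DESeq2 also called 0 of the 5. Leaving out 1 library at a time moved the *Egr1* value between 0.055 and 0.71, the highest without library 5 (unadjusted p = 0.00245, adjusted p = 0.25). It moved *Fos* between 0.41 and 0.68, *Junb* between 0.54 and 0.79, *Jun* between 0.12 and 0.33 and *Atf3* between 0.23 and 0.46. The unadjusted p of *Fos* was 0.0745, 0.0506 and 0.0629 without library 2, 4 or 6 (edgeR's quasi-likelihood test). It stayed under 0.05 without any other single library. Without libraries 4, 19 and 24, the values were 0.57 for *Fos*, 0.70 for *Junb*, 0.15 for *Egr1*, 0.14 for *Jun* and 0.43 for *Atf3*. Without libraries 3, 4, 5 and 22, they were 0.83 for *Fos*, 0.60 for *Junb*, 0.48 for *Egr1*, 0.20 for *Jun* and 0.24 for *Atf3*, again with 0 of the 5 past the threshold. The difference between the lines in the rise of *Fos* and *Junb* was therefore not past the threshold once all genes were considered.

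At p21, all 3 athymic libraries were below all 3 immunocompetent libraries for *Junb* and for *Atf3*, where 17.1% of all genes did not overlap in either direction. *Junb* was at 17.5 ± 2.33 CPM in the athymic and 25.2 ± 4.41 in the immunocompetent libraries, a log2 difference of -0.52 (standard error 0.150, adjusted p = 0.279 by edgeR's quasi-likelihood test). It was -0.65 to -0.39 without 1 library, and in a model of all 4 groups it was -0.43 without libraries 4, 19 and 24 and -0.35 without libraries 3, 4, 5 and 22. At p60, *Egr1* was higher in each athymic library than in each immunocompetent library, at 37.0 ± 4.52 against 28.8 ± 1.14 CPM (SD, n = 3 each), where 15.0% of all genes did not overlap. Its log2 difference was 0.36 (standard error 0.0943, adjusted p = 0.36), and in a model of all 4 groups it was 0.43 without libraries 4, 19 and 24 and 0.38 without libraries 3, 4, 5 and 22. In edgeR's test, 0 of the 5 genes differed between the lines at p21, at p60 or over both ages, where 0%, 0.0193% and 0% of all genes did. An unadjusted p under 0.05 was found for 1 gene at p21 (*Junb*), 1 at p60 (*Egr1*) and 0 over both ages, and DESeq2 called 0 of the 5 in each. These unadjusted calls changed with the fit. In a model of all 4 groups, unadjusted p at p21 was 0.0496 for *Fos*, 0.0346 for *Jun*, 0.00775 for *Junb* and 0.0478 for *Atf3*, and at p60 it was 0.139 for *Egr1*, with 0 of the 5 past an adjusted p of 0.05 at either age. Over both ages the log2 differences lay between -0.23 for *Atf3* and 0.22 for *Egr1*, which was 0.049 without library 5 and 0.33 without library 4.

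The spread between libraries of the same group was estimated over all 4 groups. The biological coefficient of variation, which is the spread between libraries beyond counting error in edgeR's model of the 4 groups, was 20.2% for *Egr1*, 15.5% for *Atf3*, 14.6% for *Junb*, 12.8% for *Fos* and 8.63% for *Jun*, against a median of 10.8% over all 16069 genes. Among the 4 groups, *Egr1* spread most in the athymic p21 libraries, where the SD was 24.9 CPM on a mean of 55.9 (44.6% of the mean). The part of this group in the high value was not tested. The SD of *Egr1* was 17.5% of the mean in the immunocompetent p21 libraries and 12.2% in the athymic p60 libraries. Among the immunocompetent p60 libraries its SD was 1.14 on 28.8, or 3.97% of the mean, the lowest of the 5 genes in that group. Counting error alone would give 4.71% there, so so few libraries cannot show how steady *Egr1* was. Library 5 was 0.68 above and library 4 was 0.43 below their group's mean log2 CPM. Library 4 was also the lowest of its group in *Jun* and *Junb*, and it is the library with the highest level of the set of 33 genes. The part of that set in these values was not tested.

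To see whether the 5 genes varied together, the mean of each group was subtracted and the deviations of the 12 libraries were correlated. The 10 pairs had Pearson's r between -0.65 and 0.72, and none passed adjustment over the 10 pairs (exact permutation within groups, lowest adjusted p = 0.139 for r and 0.17 for Spearman's rho). *Jun* and *Junb* had the highest r, 0.72 (rho 0.66, unadjusted exact permutation p = 0.0139 and 0.0432), which was 0.70 without the 2 libraries farthest from the median of *Jun*, 0.83 at p21 and 0.60 at p60. *Fos* and *Junb* had an r of 0.68 (rho 0.62, permutation p = 0.0548 and 0.0864), and it was 0.49 at p21 and 0.87 at p60. *Atf3* had a negative r with each of the other 4 genes, from -0.65 with *Fos* to -0.50 with *Egr1*. For each pair, the 2 libraries farthest from the median of the gene other than *Atf3* were then left out, so the libraries differed between pairs. The r of *Atf3* was then -0.67 with *Fos*, -0.56 with *Junb*, -0.25 with *Jun* and -0.10 with *Egr1*. These also differed by age, where *Egr1* and *Atf3* had an r of -0.91 at p21 and 0.31 at p60, and *Jun* and *Atf3* -0.93 and -0.11, over 6 libraries each. The positive r of *Egr1* and *Jun*, 0.58 (rho 0.27), rested on libraries 4 and 5, without which it was -0.13.

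**Figure D4:**
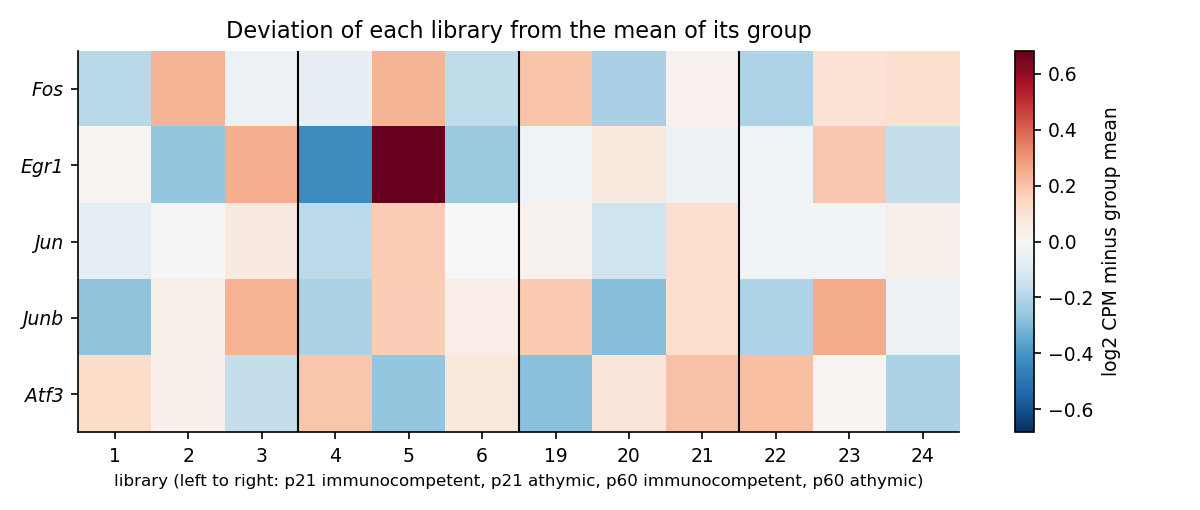
Deviation of log2 CPM from the mean of the library's own group (colour, red above and blue below) for the 5 genes (rows) in the 12 libraries (columns, by group). Athymic library 5 at p21 is 0.68 above its group in *Egr1*, and *Jun* and *Junb* deviate to the same side in most libraries.

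The genes whose deviations were most like those of each member were looked up among the 13546 genes whose mean log2 CPM was 1 or higher. They were ENSRNOG00000001730 for *Fos* (r = 0.978 over 12 libraries), ENSRNOG00000030269 for *Egr1* (r = 0.951), ENSRNOG00000055010 for *Jun* (r = 0.938), ENSRNOG00000048891 for *Junb* (r = 0.935) and ENSRNOG00000018048 for *Atf3* (r = 0.933). Each is the highest of 13546 values over 12 libraries, which also share their depth and scaling. None of the 5 is another member. Among the same genes, *Junb* ranked 137 in likeness to *Jun* and 221 in likeness to *Fos*. The change of these 5 genes from p21 to p60 was -0.049, 0.64, 0.0014, -0.14 and 0.0097 in log2 units, in the same order.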

How the data were processed

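The authors sequenced poly(A)-selected retinal RNA from both ends of each fragment. They mapped the reads with STAR (2.5.2b in the submitters' processing notes, which also name Subread 1.5.2 and the Rnor_6.0 build) and counted them per Ensembl gene with featureCounts. The authors deposited raw counts, without normalization, for each library. The strand setting and the treatment of reads with several positions are not given in the sources used here. No other gene shares exonic positions with the 5 genes.

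From these counts, genes were kept with filterByExpr (minimum count 10, minimum total 15) and libraries were scaled by TMM. Each comparison was tested over all genes with the quasi-likelihood test of edgeR 4.0.16 in R 4.3.3, with Benjamini-Hochberg adjustment at 0.05 and line as a covariate for the ages over all libraries. DESeq2 1.42.0 was an alternative. A standard error is the log2 fold change over the root of its F statistic, and log2 CPM used a prior count of 2. Single values were compared by exact permutation tests with SciPy 1.17.1. Figures were drawn with matplotlib 3.10.9. The precision of a level is limited by counting (49 counts at the lowest, for *Atf3*) and by 3 libraries per group. Replicates of a group differed by more than sampling noise (chi-square per degree of freedom 4.06 to 23.3). Whether they came from separate animals, and when each retina was taken or sequenced, is not given in the sources used here, so p-values measure the spread between these libraries, which may be technical.

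The fits were tested on simulated counts with 200 genes changed by 1 on the log2 scale. Of these, 169 were recovered for the ages over all libraries (16 false calls among 16069 genes). In the immunocompetent line 148 were recovered (15 false calls), in the athymic line 145 (17) and for the interaction 104 (14). In each of these fits, false calls were a larger share of all calls than the adjusted p threshold. Between the lines over both ages the share was smaller, with 172 recovered and 6 false calls. Far more than 200 genes were called between the ages in the data. The simulation therefore cannot show the error rate of calls near the threshold, such as those of *Atf3*.

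All 5 genes were named, and for each the most alike gene, by a rule that names 1 where no symbol is given. The members and lists were chosen with earlier results of these data known. Lists of other immediate early, stress, upstream and cell type genes could not be used, because 0 of the 32883 identifiers matched the RefSeq table. Promoter sequences were taken from RefSeq (GRCr8).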

Additional observations from a re-analysis of the deposited data

How the results depend on the processing

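The changes of *Fos*, *Junb* and *Egr1* over all 12 libraries kept their direction and stayed past the threshold under each of the 21 alternatives, with log2 fold changes of 1.62 to 2.06, 1.55 to 1.85 and -0.90 to -0.55. *Fos* and *Junb* also did so in each line, under each of 14 alternatives. *Jun* did so under 20 of 21, and scaling to total counts alone gave -0.13. That scaling moves the median of all genes, and 7357 genes were then higher and 2904 lower at p60, against 5096 and 4873.

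*Atf3* over all libraries stayed past the threshold under 11 of 21 alternatives. It was 0.353 with no filter on low counts, 0.334 with no line term and 0.185 without libraries 3, 4, 5 and 22, none of them past the threshold. In the athymic line, *Atf3* was 0.520 with DESeq2's size factors, 0.520 with no filter and 0.521 with DESeq2, again not past it, whereas with scaling to total counts it was 0.536 over all libraries and 0.711 in the athymic line, both past it. *Egr1* in the athymic line was past the threshold with no filter (-0.598) and in a model of all 4 groups (-0.592). Fits without libraries 4, 19 and 24 or without libraries 3, 4, 5 and 22, other than those of the ages over both lines, and the fit without libraries 3, 4, 6, 19 and 24, were chosen after seeing the data. In a model of all 4 groups without libraries 4, 19 and 24, the athymic line had 5 of the 5 genes past the threshold, with -0.714 for *Egr1* and -0.307 for *Jun*. The same model with all libraries had each of them past it but *Jun* (-0.204, adjusted p = 0.0583 by edgeR's quasi-likelihood test). Without libraries 3, 4, 5 and 22, *Atf3* was 0.344 in the athymic line of this model. The cause of these changes was not tested.

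Leaving out 1 library at a time over all libraries gave 1.81 to 1.96 for *Fos*, 1.57 to 1.76 for *Junb*, -0.841 to -0.564 for *Egr1*, -0.373 to -0.278 for *Jun* and 0.272 to 0.425 for *Atf3*. In the athymic line it gave -0.812 to -0.172 for *Egr1*, -0.305 to -0.118 for *Jun* and 0.396 to 0.609 for *Atf3*. For the interaction, none of the 5 genes passed under any of 19 alternatives.

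Counts of all genes called between the lines were unstable. The interaction gave 1 gene with edgeR, 146 with DESeq2, 115 with no filter, 0 with at least 10 counts in every library and 1 to 138 without 1 library. Over both ages, 0 genes were called with edgeR, 261 with DESeq2, 16 with no filter and 0 to 74 without 1 library. At p21, the counts were 0, 140, 282 and 0 to 85, and at p60 they were 3, 106, 11 and 0 to 61. Without libraries 4, 19 and 24, the count was 3 for the interaction and 1 over both ages. In a model of all 4 groups with all libraries, the counts were 0 at p21 and 2 at p60. Without libraries 4, 19 and 24, that model gave 3 at p21 and 1 at p60. Unadjusted p was under 0.05 for 1904 genes over both ages and 1936 at p21. No paired analysis was possible because no library numbers are shared between groups.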
